A study of Mus musculus with 21 samples.

Results

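Chemokines are small secreted proteins that guide migrating cells, and they are read by receptors with membrane-spanning helices that signal through inhibitory G proteins. Ligands are named after the spacing of their first cysteines, which are adjacent in the CC family and separated by a single residue in the CXC family. In the testis the best known ligand is Cxcl12, which guides primordial germ cells to the gonad through Cxcr4 and helps to hold spermatogonial stem cells in their niche. Many other members are known for recruiting leukocytes.

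All genes whose symbol was Ccl, Cxcl, Ccr or Cxcr followed by a number and at most a single letter were taken from the expression table, which gave 54 of its 37620 genes. They comprised 24 CC ligand, 13 CXC ligand, 10 CC receptor and 7 CXC receptor identifiers, 2 of which carried the symbol Ccl25. Gene expression was measured by RNA-seq in testis germ cells of C57BL/6J (B6) mice at 12 days post-partum. The cells were enriched by digestion with collagenase and trypsin, and the labels call them spermatocytes. All carried the suffix wt, and no treatment or other age was present, so the 12 libraries formed a single condition. Each of the numbers 186wt, 343wt, 444wt and 456wt had 3 libraries, and the remaining 9 samples of the series (DNA-binding and chromatin libraries) were not used here. The labels do not say whether the libraries of a number came from separate mice, so p-values compare these 4 samples against the spread between their own libraries, which may be technical. Values are FPKM, the fragments of a gene normalised to its transcript length and to the library's mapped reads, averaged over the 3 libraries of a number.

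From the spacing of the lowest values, each library held an estimated 12.7 to 17.1 M fragments (M, mega). Of the meiotic prophase list, 9 of 9 measured genes had a mean of at least 1 FPKM, with a summed level of 302 to 502 FPKM per sample number, and the spermatogonial list summed to 746 to 1094 FPKM. The Sertoli cell list summed higher, to 2503 to 4471 FPKM, so the libraries also held RNA of genes known from other testis cells. Macrophage markers summed to 13.5 to 60.1 FPKM, T cell markers to 3.27 to 4.97 FPKM and B cell markers to 0.397 to 0.587 FPKM. Lck, at 1.06 to 2.58 FPKM, was the only T cell marker with a mean of at least 1 FPKM. The neutrophil and mast cell list summed to 0.123 to 4.89 FPKM and the red cell list to 30.3 to 173 FPKM. Both sums were lowest in 186wt and highest in 456wt. In 456wt most of the first sum came from S100a8 (1.9 FPKM) and S100a9 (2.17 FPKM). Of the same list, Cpa3, Mcpt4 and Tpsb2 were highest in 343wt, at 0.223, 0.36 and 0.45 FPKM. The neutrophil marker Ly6g was listed at 0 in every library. Sample number 456wt stood apart, with a summed fibroblast and stroma list of 1424 FPKM against 461 to 558 FPKM in the others. In these bulk samples, fewer cells of a type and less RNA per cell cannot be told apart.

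The cysteine codons that give the families their names are shown for the 6 ligands with a mean of at least 1 FPKM, as 30 coding bases from 5′ to 3′ with the cysteine codons in capitals (GENCODE M1 transcripts, build NCBI37/mm9).
Cxcl12: ctgagctaccgaTGCcccTGCcggttcttc
Cxcl16: gtcgctggaagtTGTtctTGTgatcgtacc
Cxcl1: aatgagctgcgcTGTcagTGCctgcagacc
Ccl27a: tccagcactagcTGCTGTactcagctctat
Ccl25: gcctttgaagacTGCTGCctgggttaccag
Ccl19: gatgcggaagacTGCTGCctgtctgtgacc
The stretches lie at chr6:117121514-117121543 (plus strand, exon 2), chr11:70272620-70272649 (minus strand, exon 2), chr5:91320510-91320539 (plus strand, exon 2), chr4:41716806-41716835 (minus strand, exon 4), chr8:4353885-4353914 (plus strand, exon 3) and chr4:42768780-42768809 (minus strand, exon 2), in that order. Over all ligands, the codons were adjacent in 22 of 24 CC identifiers and separated by 1 codon in 12 of 13 CXC identifiers. Of the others, the search met an earlier cysteine pair at codon 17 of Ccl24, and no such pair was found in a coding transcript of Cxcl11 or of the Ccl25 identifier ENSMUSG00000055951.

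Most chemokine genes were low in these cells. A mean of at least 0.1 FPKM was reached by 30 of the 54 members (55.6%), near the 55.3% of all 37620 genes. Among the 22337 protein-coding genes the share was 74.2%. A mean of at least 1 FPKM was reached by 10 members (18.5%), against 14348 of all 37620 genes and 58.7% of the protein-coding genes. Those described here were, in falling order, Cxcl12, Ccl27a, Cxcr7, Cxcr4, Cxcl16, Ccl25, Cxcl1, Ccl19 and Cxcr2. The near-identical Ccl21 copies were counted singly, and those among the members stayed below 1 FPKM, whereas the 6 summed Ccl21 genes averaged 7.39 FPKM. A further 20 members lay between 0.1 and 1 FPKM and 24 below 0.1 FPKM, of which 5 were listed at 0 in all 12 libraries. By class, 17 of 24 CC ligands, 6 of 13 CXC ligands and 4 of 7 CXC receptors reached 0.1 FPKM. Ccl24 (0.103 FPKM) lay just inside this limit and Ccl6 (0.0967 FPKM) just outside it. The summed level of all members was 64.3, 67.0, 59.5 and 85.2 in 186wt, 343wt, 444wt and 456wt.

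**Figure D1:**
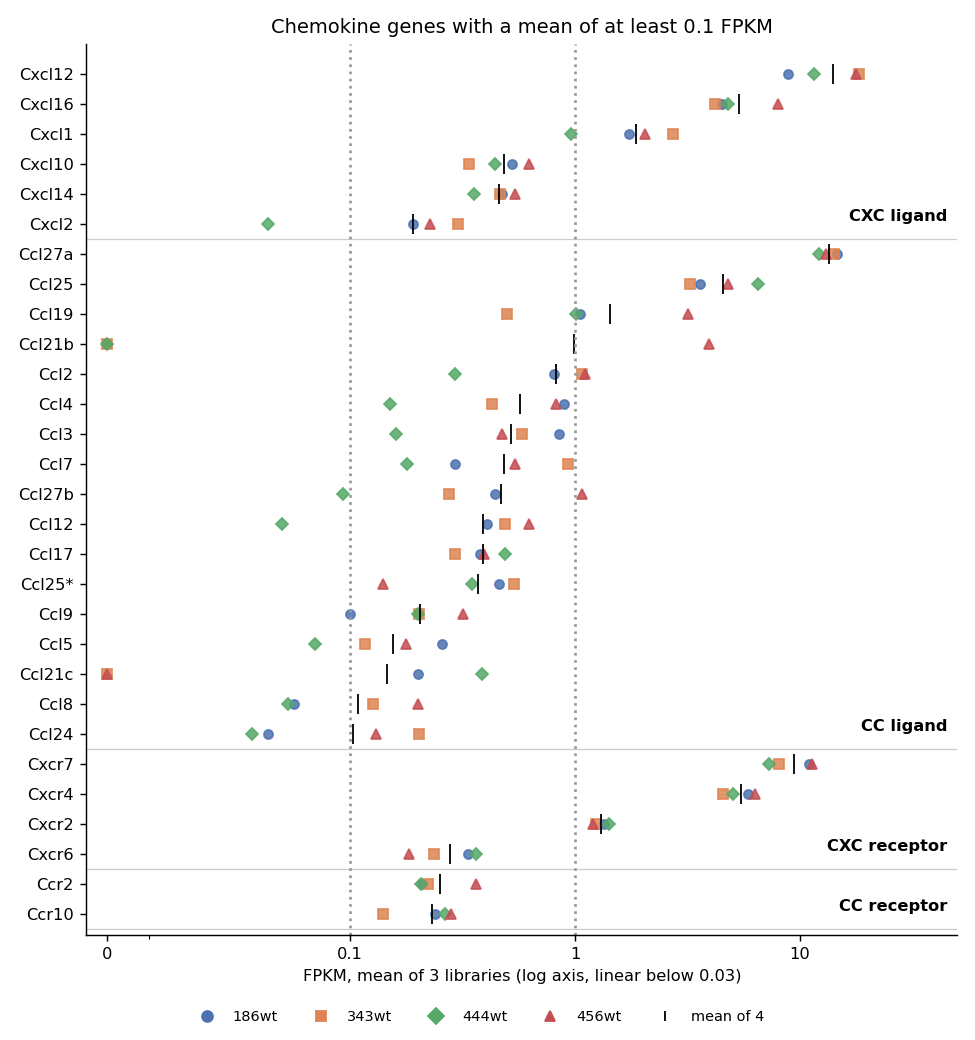
FPKM of 29 chemokine genes that averaged 0.1 FPKM or more, grouped by class, on a log axis that is linear below 0.03. Each symbol is a sample number (mean of 3 libraries), the tick is the mean of the 4, dotted lines mark 0.1 and 1 FPKM, and Ccl25* is the identifier ENSMUSG00000055951. Cxcl12 and Ccl27a lead at 14.1 and 13.5 FPKM, and 444wt is the lowest sample number for Ccl2, Ccl3, Ccl4, Ccl7 and Ccl12.

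Cxcl12 had the highest mean of the members and its receptors Cxcr7 and Cxcr4 followed after Ccl27a, which was above Cxcl12 in 186wt and 444wt. Cxcl12 (ENSMUSG00000061353, chr6:117118553-117131385) averaged 14.1 ± 4.59 FPKM (SD, n = 4 sample numbers) and made up 20.3% ± 5.47 of the summed chemokine FPKM. Its libraries read 9.54, 8.18 and 8.88 in 186wt, 19.71, 16.85 and 17.97 in 343wt, 11.71, 11.08 and 11.92 in 444wt, and 17.55, 17.76 and 17.72 FPKM in 456wt. The libraries of 343wt and 456wt lay above all libraries of 444wt, which lay above all of 186wt. Across the 4 sample numbers 58.2% of the 20795 genes tested differed (limma F-test, Benjamini-Hochberg adjusted p under 0.05), and 14 of the 30 members tested did. Cxcl12 was among them, with an adjusted p of 2.04e-07 in the limma fit and a 2.05-fold difference between the highest and the lowest sample number.

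Cxcr4 (ENSMUSG00000045382, chr1:130484776-130488870), the signalling receptor of Cxcl12, averaged 5.44 ± 0.793 FPKM (SD, n = 4). It read 6.08, 6.57 and 5.03 FPKM in the libraries of 186wt, 4.14, 5.25 and 4.27 in 343wt, 4.84, 5.44 and 4.81 in 444wt, and 6.63, 6.06 and 6.19 FPKM in 456wt. The groups overlapped except that 456wt lay above 343wt and 444wt. Its difference passed the limma F-test narrowly (adjusted p = 0.0137) and was lost without the libraries numbered 1 (0.251) or 3 (0.0629), or without 343wt (0.0622) or 456wt (0.0781).

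Cxcr7 (ENSMUSG00000044337, chr1:92100555-92113326), now named Ackr3, is an atypical receptor that takes up Cxcl12 without G protein signalling. At 9.41 ± 2.04 FPKM (SD, n = 4) it was the highest receptor, and its range of sample numbers lay above that of Cxcr4. Its libraries read 11.06, 10.73 and 11.07 in 186wt, 7.83, 9 and 7.35 in 343wt, 7.14, 6.97 and 7.72 in 444wt, and 10.91, 10.86 and 12.26 FPKM in 456wt. Here 186wt and 456wt were high and did not overlap with 343wt and 444wt (limma F-test, adjusted p = 3.77e-05). The ligand and its receptors thus stood in different orders over the sample numbers, with 186wt lowest for Cxcl12 and among the highest for Cxcr7.

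Ccl27a (ENSMUSG00000073888, chr4:41716340-41721120), a skin chemokine that attracts T cells through Ccr10, averaged 13.5 ± 1.12 FPKM (SD, n = 4), and its range of sample numbers overlapped with that of Cxcl12. Its libraries read 12.61, 15.26 and 16.07 in 186wt, 14.52, 12.62 and 15.21 in 343wt, 12.37, 14.24 and 9.86 in 444wt, and 15.26, 12.34 and 11.33 FPKM in 456wt. All 4 sample numbers overlapped, and the limma F-test gave an adjusted p of 0.352. Summed with 4 copies that share its sequence, Ccl27a was at 20.4, 19.5, 17.8 and 20.7 FPKM in 186wt, 343wt, 444wt and 456wt, more than Cxcl12 in each but with no difference called (limma F-test, adjusted p = 0.362). Ccr10 averaged 0.231 ± 0.0627 FPKM, an estimated 67.3 fragments over all libraries. Ccl27a shares sequence with Ccl27b and 3 predicted copies on the same chromosome, and 8 exonic bases with Il11ra1 on the opposite strand, and whether counting used the strand is not stated in the sources used here.

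Cxcl16 (ENSMUSG00000018920, chr11:70267485-70273486) is made as a transmembrane ligand of Cxcr6 that is shed by proteases. It averaged 5.35 ± 1.74 FPKM (SD, n = 4), with 4.53, 4.04 and 4.92 in 186wt, 4.54, 4.18 and 3.85 in 343wt, 4.31, 4.71 and 5.26 in 444wt, and 8.02, 8.63 and 7.17 FPKM in 456wt. All 3 libraries of 456wt lay above the other 9. In the limma fit 456wt exceeded the mean of the others by 0.81 ± 0.0852 (SE) on the log2(FPKM + 0.1) scale (adjusted p = 1.60e-05), and without 456wt no difference between the remaining numbers was called (adjusted p = 0.372). Its exons overlap those of Zmynd15 on the opposite strand by 552 bases. Zmynd15 averaged 1.52 FPKM, with 1.43, 1.33, 1.68 and 1.65 in 186wt, 343wt, 444wt and 456wt.

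Ccl25 (ENSMUSG00000023235, chr8:4325210-4360020) is known for drawing thymocytes and gut lymphocytes through Ccr9. It averaged 4.53 ± 1.47 FPKM (SD, n = 4), with 5.46, 3.34 and 1.93 in 186wt, 2.96, 3.1 and 3.7 in 343wt, 6.62, 6.84 and 6.07 in 444wt, and 4.72, 5.57 and 4.04 FPKM in 456wt. The libraries of 444wt lay above all others (0.80 ± 0.227 (SE) on the log2 scale, limma adjusted p = 0.0137). The F-test gave an adjusted p of 0.0251, and the call was lost without limma's trend (0.0507), without the libraries numbered 2 (0.244), without 343wt (0.0620) or without 444wt (0.279). The other Ccl25 identifier (0.372 FPKM) shares 1109 exonic bases with it, and with both summed the values were 4.04, 3.79, 6.86 and 4.92 FPKM and the F-test gave an adjusted p of 0.0418. Ccr9 was at 0.0767 ± 0.0072 FPKM.

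Cxcl1 (ENSMUSG00000029380, chr5:91320267-91322141) and Cxcr2 (ENSMUSG00000026180, chr1:74200563-74207812) are known as a ligand and receptor of neutrophil recruitment. Cxcl1 averaged 1.87 ± 0.734 FPKM (SD, n = 4), an estimated 301 fragments over all libraries. Its libraries read 1.46, 2.04 and 1.73 in 186wt, 2.98, 2.16 and 3.04 in 343wt, 1.02, 1.46 and 0.39 in 444wt, and 2.24, 1.98 and 1.94 FPKM in 456wt. The highest library of 444wt equalled the lowest of 186wt, and 343wt lay above 186wt and 444wt and overlapped with 456wt (limma F-test, adjusted p = 0.0101, but 0.108 without the libraries numbered 1 and 0.0615 without those numbered 3). Cxcr2 lay between 1.02 and 1.52 FPKM in single libraries, all 4 sample numbers overlapped (limma F-test, adjusted p = 0.443), and its transcripts hold repeat sequence shared with 189 other genes. Cxcr1 was at 0.0675 FPKM, and S100a8 and S100a9, which neutrophils carry at high levels, were listed at 0 in 186wt and 343wt and reached 1.90 and 2.17 FPKM in 456wt.

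**Figure D2:**
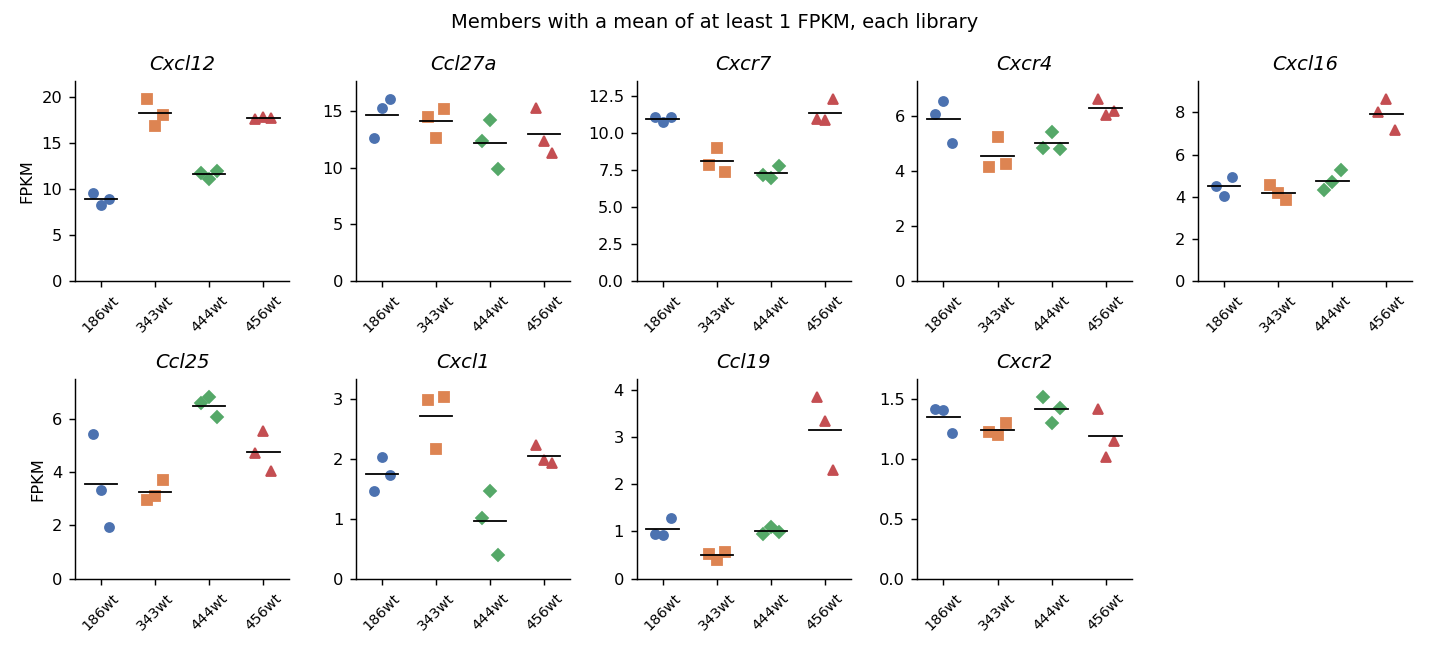
FPKM of each library for 9 members with a mean of at least 1 FPKM, by sample number. Symbols are libraries, horizontal lines are the means of 3 libraries and every axis starts at 0. Cxcl16 and Ccl19 are high in all 3 libraries of 456wt, while Ccl27a and Cxcr2 overlap in all 4 sample numbers.

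Ccl19 and the Ccl21 genes, the ligands that draw T cells and dendritic cells into lymph nodes through Ccr7, were highest in 456wt. Ccl19 (ENSMUSG00000071005, chr4:42768057-42770109) averaged 1.43 ± 1.18 FPKM (SD, n = 4). Its libraries read 0.95, 0.93 and 1.29 in 186wt, 0.52, 0.4 and 0.57 in 343wt, 0.95, 1.1 and 0.98 in 444wt, and 3.86, 3.34 and 2.3 FPKM in 456wt. The groups 343wt and 456wt overlapped with no other number, and 456wt was 6.38-fold above 343wt (limma F-test, adjusted p = 9.38e-06). Summed with 6 copies and pseudogenes that share its sequence, the values were 2.44, 1.96, 2.25 and 6.25 FPKM (adjusted p = 9.46e-07). Ccr7 was at 0.0283 FPKM in the mean, an estimated 9.72 fragments over all libraries.

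The Ccl21 genes lie with Ccl19, Ccl27a and Ccl27b at chr4:41716340-42787525. Ccl21a, Ccl21b and Ccl21c were joined there by Gm1987, Gm10591 and Gm13304, and the 6 coding sequences of 402 bases differed at only 2 positions. Ccl21a and Gm1987 were identical and formed the Ccl21a type, and Ccl21b, Ccl21c, Gm10591 and Gm13304 were identical and formed the Ccl21b type. The stretches around both differences are shown because, within the coding sequence, only fragments that cover them can tell the types apart, with the differing base in capitals.
Ccl21a, around base 84: agtgatggagggggTcaggactgctgcctt
Ccl21b, around base 84: agtgatggagggggAcaggactgctgcctt
Ccl21a, around base 194: gcaatcctgttctCaccccggaagcactct
Ccl21b, around base 194: gcaatcctgttctTaccccggaagcactct
With Ccl21b's base first and positions counted from the first base of the start codon, the differences are A84T and T194C. The first leaves a glycine codon and the second turns codon 65 from TTA (leucine) into TCA (serine). The stretches lie at chr4:42787264-42787293 (Ccl21a, minus strand) and chr4:41774436-41774465 (Ccl21b, plus strand), within exon 2, and at chr4:42787059-42787182 and chr4:41774547-41774670, where they run across the junction of exon 2 with the next exon.

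The estimates moved between identical copies from library to library. Ccl21b was listed at 0 in 11 libraries and at 11.84 FPKM in the remaining library of 456wt, in which Gm10591, at 7.49 and 11.34 FPKM in the other two, was listed at 0. Ccl21c was above 0 in 2 libraries only (0.6 and 1.16 FPKM), and Ccl21a was listed at 0 in all 12 while the identical Gm1987 held 9.12, 8.43 and 7.31 FPKM in 456wt. The values of single copies, including the mean of 0.987 FPKM for Ccl21b, are therefore uncertain, and the sums are given instead.

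The sum of the 6 genes was 2.74, 2.7 and 1.99 in 186wt, 2.71, 4.1 and 3.42 in 343wt, 4.43, 3.86 and 3.64 in 444wt, and 18.95, 19.77 and 20.34 FPKM in 456wt. All libraries of 456wt lay far above the other 9. The sum in 456wt exceeded the mean of the others by 2.58 ± 0.124 (SE) on the log2(FPKM + 0.1) scale (limma, adjusted p = 2.33e-08).

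By type, the pattern was uneven. The Ccl21b type was at 2.48, 3.31, 3.91 and 11.4 in 186wt, 343wt, 444wt and 456wt. The Ccl21a type was listed at 0 in every library of 186wt, never exceeded 0.2 FPKM in 343wt and 444wt, and was at 8.29 FPKM in 456wt. In the limma fit with copies summed by type, both differed between sample numbers (adjusted p = 9.80e-07 for the Ccl21a type and 2.06e-06 for the Ccl21b type). The types share 80.6% of the 31-base words of their transcripts, so their separation rests on the remaining stretches. The stroma, peritubular and endothelial lists were also highest in 456wt, at 1424 against 461 to 558, 1161 against 261 to 695 and 48.5 against 18.7 to 28.2 FPKM, and their part in the difference was not tested.

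**Figure D3:**
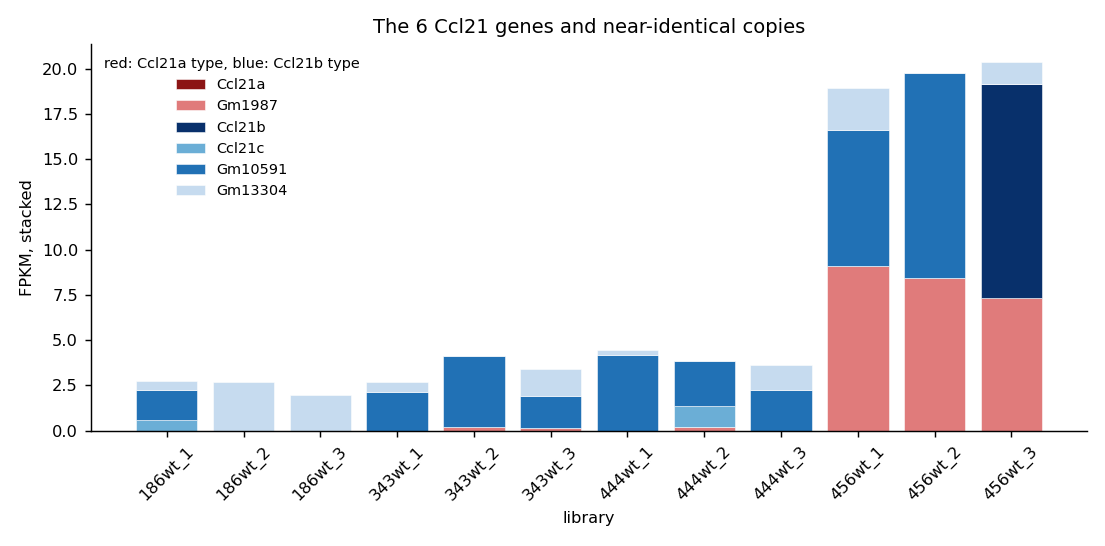
FPKM of the 6 Ccl21 genes and copies, stacked, in each of the 12 libraries. Red shades are the Ccl21a type and blue shades the Ccl21b type. Totals stay between 1.99 and 4.43 FPKM in 9 libraries and reach 18.95 to 20.34 FPKM in 456wt, where the copy that carries the value changes between libraries.

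Several ligands known for attracting monocytes, T cells and neutrophils were low, and the means of Ccl2, Ccl3, Ccl4, Ccl7, Ccl12, Cxcl1 and Cxcl2 were lowest in 444wt. All of these passed the F-test. Ligands described above passed it with another order, as Cxcl16, Ccl19 and Ccl25 were lowest in 343wt and Cxcl12 in 186wt. Among ligands that did not pass, Cxcl10 and Ccl17 were lowest in 343wt (0.337 and 0.293 FPKM) and Ccl9 in 186wt (0.1 FPKM). The cluster of 11 CC ligands at chr11:81849073-83478185 had 8 members of at least 0.1 FPKM and none of at least 1 FPKM. Ccl2, the main ligand of Ccr2 and attractant of monocytes, led it at 0.821 ± 0.376 FPKM (SD, n = 4). Its libraries read 0.83, 0.88 and 0.72 in 186wt, 1.28, 1.15 and 0.79 in 343wt, 0.26, 0.15 and 0.47 in 444wt, and 1.23, 0.94 and 1.15 FPKM in 456wt. No library of 444wt reached any of the other 9, and the contrast was -1.54 ± 0.232 (SE) on the log2 scale (limma, adjusted p = 0.00022).

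The related Ccr2 ligands Ccl7 and Ccl12 averaged 0.486 ± 0.331 and 0.392 ± 0.245 FPKM. Ccl7 read 0.37, 0.09 and 0.42 in 186wt, 1.38, 0.73 and 0.67 in 343wt, 0.18, 0.26 and 0.1 in 444wt, and 0.81, 0.55 and 0.27 FPKM in 456wt, so that 343wt was highest in the mean and 186wt overlapped with 444wt. Ccl12 read 0.58, 0.15 and 0.49 in 186wt, 0.63, 0.25 and 0.58 in 343wt, 0.15, 0 and 0 in 444wt, and 1.12, 0.43 and 0.32 FPKM in 456wt. The only library of 444wt with any Ccl12 equalled the lowest of 186wt. Ccl4 and Ccl3, which attract T cells and macrophages, averaged 0.573 ± 0.348 and 0.518 ± 0.287 FPKM, and both were highest in 186wt. Ccl4 read 0.69, 0.82 and 1.16 in 186wt, 0.4, 0.6 and 0.28 in 343wt, 0, 0.33 and 0.12 in 444wt, and 1, 0.8 and 0.67 FPKM in 456wt. Ccl3 read 0.97, 0.5 and 1.09 in 186wt, 0.77, 0.51 and 0.47 in 343wt, 0, 0.28 and 0.2 in 444wt, and 0.47, 0.48 and 0.47 FPKM in 456wt. The libraries of 444wt lay below all others for Ccl3, and for Ccl4 they overlapped only with 343wt. These values rest on few molecules, with an estimated 3.99 fragments of Ccl4 and 4.93 of Ccl3 in the 3 libraries of 444wt against 21.6 and 24.4 in 186wt.

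In all, 9 of the 30 members were lower in 444wt than the mean of the other 3 (limma, adjusted p under 0.05), against 17.8% of all genes tested, and 1 was higher, against 26.5%. The 9 were Cxcl12, Cxcr7, Cxcl1, Cxcl2, Ccl2, Ccl3, Ccl4, Ccl7 and Ccl12, and the higher member was Ccl25. Cxcl2, a neutrophil attractant like Cxcl1, averaged 0.191 ± 0.109 FPKM and was at 0.0433 FPKM in 444wt. Without 444wt, the differences between the remaining numbers were no longer called for Ccl2, Ccl3, Ccl7, Ccl12 and Cxcl2 (limma F-test, adjusted p from 0.0801 to 0.725), and the count of members differing fell from 14 to 8. Leaving out a library number also ended F-test calls. They were lost for Cxcl2 without number 1 (0.0567), 2 (0.213) or 3 (0.199), for Ccl7 without 1 (0.172) or 2 (0.0545), for Ccl12 without 2 (0.0527) or 3 (0.138), for Ccl3 without 1 (0.101) or 3 (0.0994), and for Ccl4 without 3 (0.0758). With a pseudocount of 1 the calls of Ccl12 (0.0624) and Cxcl2 (0.0636) were lost, with 0.01 that of Ccl3 (0.0531), and without 343wt those of Ccl7 (0.172) and Cxcl2 (0.101). The macrophage list summed to 13.5 FPKM in 444wt against 28.7, 60.1 and 50.3 in 186wt, 343wt and 456wt, with 9 of its 11 measured markers lower in 444wt, and the Leydig list to 16.4 against 59.4, 120 and 67.1 FPKM with 7 of 7 lower. Both germ cell lists were highest in 444wt. No marker of the macrophage or Leydig list was at 0 throughout, and their part in the chemokine values was not tested.

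**Figure D4:**
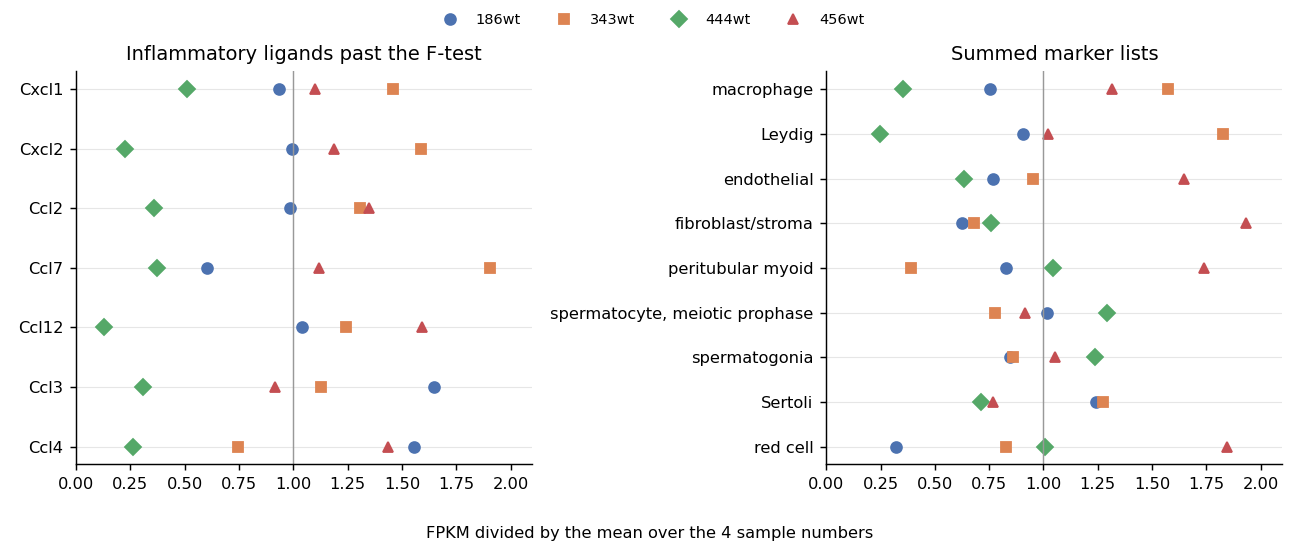
FPKM divided by the mean over the 4 sample numbers, on a linear axis, for 7 inflammatory ligands past the F-test (left) and for summed marker lists (right). Each symbol is a sample number (mean of 3 libraries) and the line marks 1. All 7 ligands are lowest in 444wt, as are the macrophage, Leydig, endothelial and Sertoli lists, whereas both germ cell lists are highest there. The placing of the ligands is partly set by their choice, since the calls of Ccl2, Ccl3, Ccl7, Ccl12 and Cxcl2 were lost without 444wt. Cxcl10 and Ccl17 (lowest mean FPKM in 343wt) and Ccl9 (lowest in 186wt) did not pass and are not drawn. The ligands Cxcl16, Ccl19 and Ccl25 (lowest in 343wt) and Cxcl12 (lowest in 186wt) passed but are not drawn either.

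In 456wt, 8 members were higher than the mean of the other 3 (limma, adjusted p under 0.05), against 22.9% of all genes tested, and 0 were lower, against 13.6%. At an unadjusted p under 0.05 in the limma fit, the counts were 10 higher and 0 lower. Among the 8 were Cxcl12, Cxcr7, Cxcr4, Cxcl16, Ccl19, Ccl2 and Ccl27b. Ccl27b did not pass the F-test (adjusted p = 0.0857). All sequence words of Ccl27b are shared with the predicted copy Gm2506, so its value as a single copy is uncertain. The sum of Ccl27a, Ccl27b and their copies was not called different in 456wt (0.107 ± 0.0942 (SE) on the log2 scale, limma adjusted p = 0.425). Most of that sum is Ccl27a, so the sum cannot decide whether Ccl27b itself was higher. In 343wt, 4 members were higher (Cxcl12, Cxcl1, Ccl2 and Ccl7) and 5 lower (among them Cxcr7, Cxcr4, Cxcl16 and Ccl19), against 14.5% and 25.6% of all genes. In 186wt, 3 were higher (Cxcr7, Ccl4 and Ccl3) and 2 lower (Cxcl12 and Cxcl16), against 14.8% and 21.9%. The median log2 range between sample numbers was 1.06 over the 30 members and 0.55 over all genes tested. However, 20 of the 30 members lay between 0.1 and 1 FPKM, against 6447 of the 20795 genes, and ranges were not compared at matched levels. The F-test called 46.7% of the members and 58.2% of all genes tested.

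**Figure D5:**
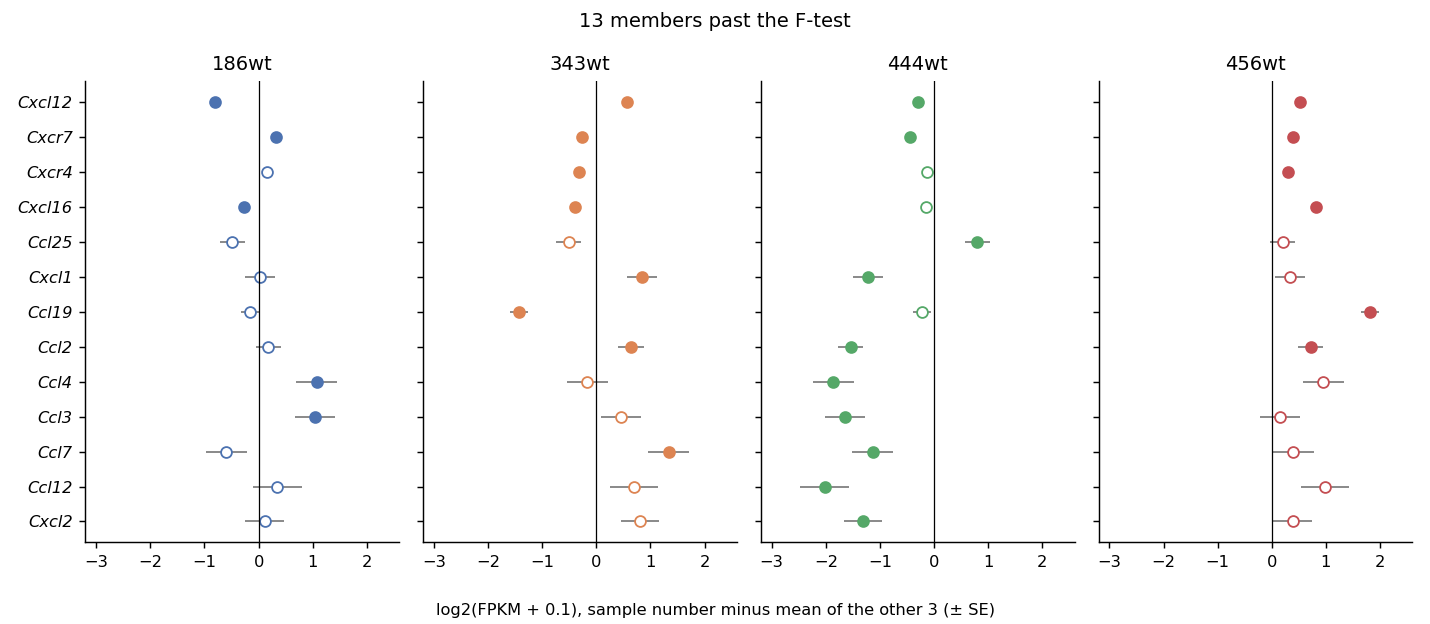
Difference of each sample number from the mean of the other 3, on the log2(FPKM + 0.1) scale with its SE, for 13 members past the F-test. Filled symbols have an adjusted p under 0.05 and open symbols do not. In 444wt 9 members lie significantly below 0 and Ccl25 above it, and in 456wt the significant members all lie above 0.

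The remaining ligands between 0.1 and 1 FPKM did not pass the F-test. Cxcl10, an interferon-induced ligand of Cxcr3, averaged 0.482 ± 0.122 FPKM, with single libraries from 0.13 to 1.18 FPKM, and it shares 133 exonic bases with Art3 on the opposite strand, which was at 99.6 FPKM. Cxcl14 averaged 0.460 ± 0.0771 FPKM. Ccl17, a ligand of Ccr4, averaged 0.388 ± 0.0807 FPKM and Ccl27b 0.471 ± 0.426 FPKM. Ccl27b shares sequence with Ccl27a and, in full, with the predicted copy Gm2506. Ccl9 averaged 0.205 ± 0.0885 FPKM and shares repeat sequence with 323 other genes. Ccl5, Ccl8 and Ccl24 averaged 0.155, 0.109 and 0.103 FPKM, and Ccl8 rested on an estimated 8.85 fragments in all. At this depth 1 fragment of Ccl8 in a median library equals 0.151 FPKM, so library values of this size stand for single fragments.

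The low receptors were not called different between samples. Cxcr6, the receptor of Cxcl16, averaged 0.279 ± 0.0837 FPKM, an estimated 89.2 fragments over all libraries, and Ccr2 averaged 0.251 ± 0.0753 FPKM. Neither passed the limma F-test (adjusted p = 0.166 and 0.231). Below 0.1 FPKM lay the receptors Ccr1, Ccr3, Ccr4, Ccr6, Ccr7, Ccr8, Ccr9, Cxcr1, Cxcr3 and Cxcr5, and the ligands Ccl1, Ccl6, Ccl11, Ccl22, Cxcl5, Cxcl9, Cxcl11, Cxcl15 and Cxcl17. Ccl20, Ccl21a, Ccl26, Cxcl3 and Cxcl13 were listed at 0 in every library. For Cxcl13, a B cell attractant, 0 fragments over all libraries allow a mean of up to 0.0153 FPKM (counting error only), and for Cxcl3 up to 0.0179 FPKM.

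Ligands and receptors were seldom both above 1 FPKM. Of 36 known pairs of ligand and receptor, 12 had both at or above 0.1 FPKM and 3 had both at or above 1 FPKM, namely Cxcl12 with Cxcr4, Cxcl12 with Cxcr7 and Cxcl1 with Cxcr2. The ligand alone reached 1 FPKM in 4 pairs, which were Ccl27a with Ccr10, Cxcl16 with Cxcr6, Ccl25 with Ccr9 and Ccl19 with Ccr7. The receptor alone did so in 7 pairs, 3 of them of Cxcr2. Neither did in 22 pairs, among them every pair of Ccr1, Ccr2, Ccr3, Ccr4, Ccr6 and Ccr8. Copies were entered singly, so the pairs of Ccl21a, Ccl21b and Ccl21c with Ccr7 also fell there. The 6 summed Ccl21 genes averaged 7.39 FPKM.

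Chemokine and other chemoattractant genes outside the symbol rule were partly higher than the members. Of 13 identifiers measured, 11 reached 0.1 FPKM and were tested, and 7 passed the F-test, against 58.2% of all genes tested. In 444wt 3 were lower, against 17.8% of all genes, and in 456wt 5 were higher and 1 lower, against 22.9% and 13.6%. Rarres2, which encodes the attractant chemerin, averaged 20.7 FPKM, with 13.5, 15.9, 13.5 and 39.7 in 186wt, 343wt, 444wt and 456wt. Cx3cl1, a membrane-bound chemokine, averaged 17.0 FPKM, with 14.7, 9.37, 15.4 and 28.6 FPKM. Both were highest in 456wt. Pf4, a chemokine of platelets, read 1.55, 5.28, 0.85 and 3.37 FPKM and had the largest log2 range of the list (2.56), and Cx3cr1, the receptor of Cx3cl1, read 0.867, 1.71, 0.457 and 1.35 FPKM, so that both were lowest in 444wt.

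Genes of receptor signalling had a median of 19.4 FPKM, against 0.151 FPKM over the 54 members. Of 23 signalling genes, 23 reached 0.1 FPKM and 18 passed the F-test, against 58.2% of all genes tested. In 444wt 4 were higher and 11 lower, against 26.5% and 17.8% of all genes, and in 456wt 10 were higher and 4 lower, against 22.9% and 13.6%. The subunits Gnb1 and Gnb2 averaged 357 and 163 FPKM, and the small GTPase Cdc42 averaged 178 FPKM. Gng2 had the largest range of those past the test (1.59 on the log2 scale, highest in 456wt at 5.61 FPKM). The 6 genes below 1 FPKM were Pik3r5, Rac2, Plcb2, Rgs1, Dock2 and Pik3cg, most of them best known from blood cells, at 0.272 to 0.413 FPKM.

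Of 14 proteases and glycosaminoglycan anchors, 12 passed the F-test, against 58.2% of all genes tested. In 444wt 4 were higher and 5 lower, against 26.5% and 17.8% of all genes, and in 456wt 7 were higher and 4 lower, against 22.9% and 13.6%. The heparan sulphate carrier Sdc4 averaged 153 FPKM, the protease Mmp14 58.8 FPKM and Adam10, which sheds Cxcl16 and Cx3cl1, 55.6 FPKM. Mmp2, which can cleave Cxcl12, had the largest range (1.42 on the log2 scale, highest in 456wt at 27.6 FPKM). Dpp4, which also trims Cxcl12, was at 0.600 FPKM.

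Of 24 inducers and regulators of inflammatory chemokines, 20 reached 0.1 FPKM and were tested. Of these, 17 passed the F-test, against 58.2% of all genes tested. In 444wt 3 were higher and 13 lower, against 26.5% and 17.8% of all genes, and in 456wt 8 were higher and 3 lower, against 22.9% and 13.6%. The NF-kB subunit Rela averaged 47.5 FPKM, the TNF receptor Tnfrsf1a 39.9 FPKM and the interferon regulator Irf3 38.2 FPKM. Cytokines themselves were low, with Il1a at 0.411 FPKM, Tnf at 0.240 FPKM, Il1b at 0.207 FPKM and Ifng at 0.0242 FPKM. Il6 and Ifnb1 were listed at 0 in every library. Il1a passed the limma F-test (adjusted p = 0.00833) and was lowest in 444wt, at 0.230 FPKM. Tlr2 had the largest range of those past the test (1.72 on the log2 scale), with 0.260, 0.430, 0.113 and 0.587 in 186wt, 343wt, 444wt and 456wt.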

How the data were processed

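Messenger RNA of the 12 libraries was sequenced by the authors as paired-end reads, aligned with Bowtie 0.12.9 and quantified with RSEM 1.2.8 (build mm9), and the deposited values are the authors' FPKM for 37620 genes, with no counts. RSEM shares fragments between similar transcripts, which affects near-identical copies. Means were taken over the 3 libraries of each number, and the 4 numbers were compared by an F-test and each with the mean of the other 3. Tests used limma 3.58.1 (R 4.3.3) on log2(FPKM + 0.1) over the 20795 genes that averaged 0.1 FPKM or more, with Benjamini-Hochberg adjustment over all of them, and were tested on simulated data. Fold changes on this scale understate those of low genes. Depth was estimated by median regression (statsmodels 0.14.6) of 1/FPKM on length over single-transcript genes of 300 to 800 bases, and on simulated libraries the largest error was 4.51%. Gene models came from GENCODE M1, which held 37205 of the identifiers. Members with a mean of at least 1 FPKM are given with all values, those from 0.1 to 1 FPKM with mean and SD or range, and the 3 highest and the most variable genes of each pathway list are named. Members and lists were chosen with earlier results of these data known. Alternatives changed the pseudocount, filter, scaling and libraries. A member that these rules cover is not reported here and is left out of the plots, but it stays in the counts.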

Additional observations from a re-analysis of the deposited data

Results flagged for a closer look

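A sample number was marked where its gap to the nearest of the other 3 divided by the whole range exceeded Dixon's 95% critical value. Of 58 values examined, 9 were marked, where chance gives about 1 in 20 (2.9), and 456wt was the highest sample number in all 9. They were Cxcl16 (7.94 FPKM against 4.19 to 4.76), Ccl21b (3.95 FPKM, with the others listed at 0), Ccr2 (0.363 FPKM against 0.207 to 0.223) and the summed Ccl19 genes (6.25 FPKM against 1.96 to 2.44). The same held for the summed Ccl21 genes (19.7 FPKM against 2.48 to 3.98), for their Ccl21a type (8.29 FPKM against 0 to 0.103) and for their Ccl21b type (11.4 FPKM against 2.48 to 3.91). The remaining sums were the fibroblast and stroma list (1424 FPKM against 461 to 558) and the chemokine and other chemoattractant genes outside the symbol rule (78.9 FPKM against 35.5 to 37.5, with Rarres2 at 39.7 FPKM in 456wt). These values share genes and libraries and are not independent, and the value of Ccl21b comes from 1 library.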

How the results depend on the processing

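The number of members at or above the minimum level was 30. It was 49 with any value above 0 and 10 with a minimum of 1 FPKM, which follow from the limits themselves. It was 22 when each sample number had to reach the minimum, and 27 to 31 when 1 sample number was left out. Rescaling all libraries to the same larger total gave 39. The library totals were already close, at 4.78e+05 to 4.85e+05 FPKM. This rescaling raised the mean of Cxcl12 from 14.1 to 29.3 FPKM, while the minimum stayed at 0.1. The count of 39 thus follows from the change of unit and does not show an effect of scaling between libraries. The count of members differing between sample numbers was 14, but 8 with a minimum of 1 FPKM, where only 10 members were tested, and 7 to 15 when a library number or a sample number was left out (lowest without the libraries numbered 3, and 9 without those numbered 1, when each number keeps 2 libraries). The count of members apart in a sample number was 15, but 8 with a minimum of 1 FPKM, and 8 to 15 when a library number or a sample number was left out, the lowest without 444wt. The replicate block, with library number as a block, gave 14 members differing and 14 apart, and 11774 of all genes against 12107. Correlations between the deviations of libraries with the same number ran from -0.0648 to 0.128 over 18 pairs. With other numbers they ran from -0.128 to 0.0835 over 36 pairs. The ranges overlap and are too broad to decide whether the numbers pair the samples. The share of Cxcl12 stayed between 18.0% and 22.4% when 1 sample number was left out. Summing copies, or the Ccl21 copies by type, was chosen after seeing the data and gave 15 and 16 members differing. Of 466 single-member tests under alternatives, 425 kept their side of the threshold, 37 lost and 4 gained a call, and none reversed. The gains were of Ccl27b. Levels of the 10 highest members moved in 10 of 60 alternatives, each by rescaling all libraries to the same larger total, which is a change of unit. Depth limits the lowest members, at a level that depends on transcript length. In a median library 1 fragment equals 0.0249 FPKM for Ccr1 but 0.151 FPKM for Ccl8.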
